A study of Mus musculus with 11 samples.

Results

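The mitochondrial β-oxidation spiral was examined in the kidneys of aged mice that had lost *Cpt1a* in their tubules, through 10 core enzymes, namely *Acadvl*, *Acadl*, *Acadm*, *Acads*, *Hadha*, *Hadhb*, *Echs1*, *Hadh*, *Acaa2* and *Eci1*. The genes were taken by symbol from the 53801 genes of the deposited count table, and all 10 were among the 18160 genes with enough reads to be tested. In Cpt1aCKO mice the enzymes of the long-chain end of the spiral (*Acadvl*, *Acadl*, *Hadha* and *Hadhb*), the thiolase *Acaa2* and the isomerase *Eci1* were 1.19-fold to 1.62-fold the level of floxed controls, each at an unadjusted p under 0.05 from edgeR. *Acadm*, *Acads*, *Echs1* and *Hadh*, which like *Acaa2* serve medium or short chains, differed by no more than 9.03% in either direction and did not pass, so the difference did not follow chain length in every member. None of the 10 passed after adjustment over all genes in edgeR, and *Acaa2* and *Acadl* passed in DESeq2.

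Bulk RNA-Seq had been performed on kidney (cortex, per the study's methods) from 6 Cpt1aCKO mice and 5 floxed controls, 1 library per mouse. Cpt1aCKO mice carried floxed *Cpt1a* with Pax8-rTTA and tetO-Cre, a doxycycline-inducible Cre that acts in Pax8-expressing tubule cells, so glomerular, vascular, interstitial and immune cells kept the gene. The controls are labeled only as floxed. Blot images in the paper's supplement label aged mice either with Pax8 and a tag LC1, which is not explained there, or with Pax8 alone. The numbers of the floxed controls S7762, S2582 and S2578 are among those mice. Which label belongs to which number could not be read from the text of these images. Whether the controls carried rTTA or Cre is thus not stated outright in the sources used here. All were males on a mixed background, received doxycycline food for 3 weeks (at 5 to 8 weeks of age per the labels), and were 2 years old.

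β-Oxidation shortens an acyl-CoA in turns inside the mitochondrial matrix. Each turn runs through an acyl-CoA dehydrogenase, an enoyl-CoA hydratase, a hydroxyacyl-CoA dehydrogenase and a thiolase, which releases acetyl-CoA. Long chains reach the matrix as carnitine esters made by CPT1 and are first handled by membrane-bound enzymes, VLCAD and the mitochondrial trifunctional protein. Shorter chains are handled by soluble matrix enzymes. The proximal tubule is rich in mitochondria and known as a heavy user of fatty acids.

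*Cpt1a* itself was at 38.4 to 97.3 CPM (TMM-scaled counts per unit of library size, median 60.2) in Cpt1aCKO mice, against 449, 436, 418, 548 and 508 CPM in the floxed control mice S2152, S7601, S7762, S2582 and S2578, so each library matched its label. Reads counted on genes numbered 43027049 to 57459929 per Cpt1aCKO mouse and 39628721 to 56241595 per floxed control mouse, and each member had between 6079 and 71807 reads per mouse, so counting error was small beside the spread between mice. The library of the Cpt1aCKO mouse S7602 stood apart in its reads on olfactory receptor genes, at 159 CPM, against 9.04 to 21.5 CPM in the other Cpt1aCKO mice and 10.9 to 40.0 CPM in floxed controls. The Cpt1aCKO mouse S2577 stood apart too. Its squared count differences from the other Cpt1aCKO mice were 50.2 to 88.4 times those of sampling noise (chi-square per degree of freedom). The same measure was 23.7 to 58.7 among those other mice and 35.2 to 60.3 among floxed controls. *Aqp1*, a water channel of the proximal tubule, was at 217 CPM in S2577, against 732 to 905 CPM in the other Cpt1aCKO mice. The floxed control mouse S2578 was likewise low, at 351 CPM against 630 to 864 CPM in the other floxed controls. Without S7602 or without S2577, the same number of members (6) was higher at an unadjusted p under 0.05. The 10 proximal tubule markers summed to 14030 to 17776 CPM in Cpt1aCKO mice and 14951 to 16777 CPM in floxed controls, and 0 passed an unadjusted p under 0.05 from edgeR, but 1 was lower without S7602 (*Slc22a6*), and 2 were higher (*Hnf4a* and *Slc5a12*) and 1 lower (*Slc5a2*) without S2577. The 6 markers of its S3 segment summed to 1231 to 1936 CPM in Cpt1aCKO mice and 1104 to 2445 CPM in floxed controls (median log2 fold change -0.26), and 1 of them, the anion transporter *Slc22a7*, was lower (-0.79, unadjusted p = 0.031 from edgeR), though not without S2155.

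*Acadvl* (chr11:70010183-70015411, minus strand, GRCm38 with GENCODE M21, as for all gene positions here) encodes VLCAD, the membrane-bound dehydrogenase for the longest chains. Its promoter is shown because it holds AGGTCA, the core letters that PPAR and related nuclear receptors bind, 82 to 87 bases before the RefSeq start of the gene. The stretch, from RefSeq on GRCm38.p6, runs 5′ to 3′ on the minus strand over chr11:70015479-70015538, with AGGTCA in capitals.
Acadvl: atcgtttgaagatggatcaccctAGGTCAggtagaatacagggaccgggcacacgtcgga
*Acadvl* was at 380 to 459 CPM (median 404) in Cpt1aCKO mice, against 323, 340, 363, 362 and 333 CPM in floxed controls. All 6 Cpt1aCKO mice were above all 5 floxed controls. The means were 410 ± 28.1 CPM (SD, n = 6) in Cpt1aCKO mice and 344 ± 17.6 CPM (SD, n = 5) in floxed controls, a log2 fold change of 0.25 (SE 0.0642, adjusted p = 0.483 from edgeR). The exact two-sided permutation test gave p = 0.00216, the smallest that 6 mice against 5 allow. By GENCODE exons, *Acadvl* shares 1151 bases, or 42.9% of its exon length, with *Dvl2* on the opposite strand, and the strand setting of the counting is not given in the sources used here. *Dvl2* was at 9.88 ± 1.47 CPM (SD, n = 6) in Cpt1aCKO mice and 10.1 ± 1.11 CPM (SD, n = 5) in floxed controls, far below *Acadvl* in both.

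*Acadl* (chr1:66830839-66863277, minus strand) encodes the long-chain dehydrogenase of the matrix. It was at 622 to 773 CPM (median 693) in Cpt1aCKO mice, against 523, 581, 563, 596 and 584 CPM in floxed controls, and here too the groups did not overlap. The log2 fold change was 0.28 (SE 0.0663, adjusted p = 0.446 from edgeR and 0.0334 from DESeq2). The means were 691 ± 52.4 CPM (SD, n = 6) in Cpt1aCKO mice and 569 ± 28.5 CPM (SD, n = 5) in floxed controls.

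*Acadm* (chr3:153922357-153944632, minus strand) encodes the medium-chain dehydrogenase, whose loss is the most familiar human β-oxidation defect. Its promoter stretch is shown for comparison with that of *Acadvl*, since it too holds AGGTCA, here on the reverse strand, 244 to 249 bases before the RefSeq start. It covers chr3:153944834-153944893 on the minus strand of GRCm38.p6, with the motif, read in reverse complement, in capitals.
Acadm: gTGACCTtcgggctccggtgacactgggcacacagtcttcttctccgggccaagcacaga
*Acadm* was at 944 to 1240 CPM (median 1121) in Cpt1aCKO mice, against 1122, 1126, 992, 1049 and 1026 CPM in floxed controls. The lowest mouse of all was the Cpt1aCKO mouse S2577 and the highest the Cpt1aCKO mouse S2155, with the floxed controls between them. The log2 fold change was 0.05 (SE 0.0737, adjusted p = 0.95 from edgeR).

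*Acads* (chr5:115110299-115119346, minus strand) encodes the short-chain dehydrogenase. It was at 271 to 334 CPM (median 306) in Cpt1aCKO mice, against 298, 322, 302, 321 and 263 CPM in floxed controls. The groups lay over each other, with a log2 fold change of 0.03 (SE 0.0741, adjusted p = 0.98 from edgeR), whose sign turned when S7602 or the floxed control mouse S2578 was left out (-0.00084 and -0.018).

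**Figure D1:**
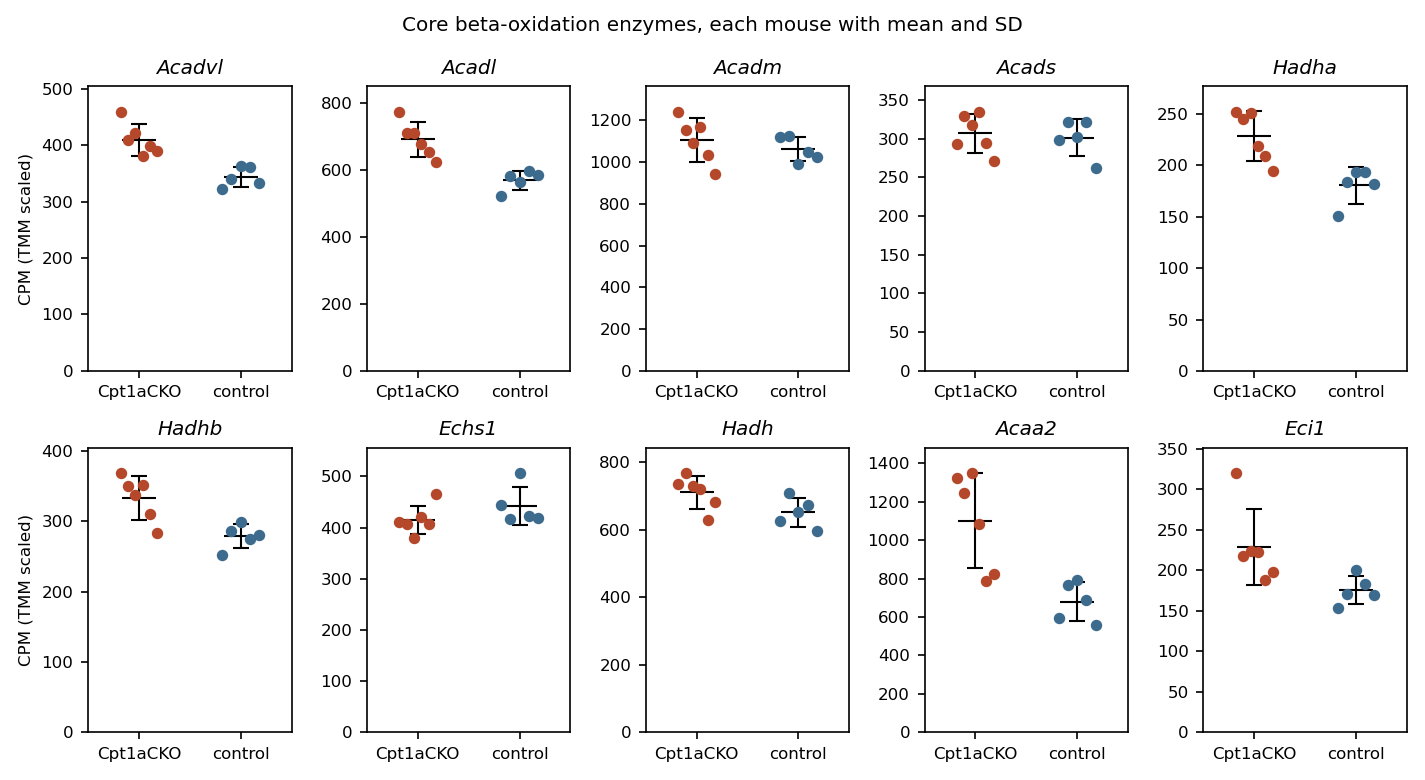
CPM (TMM scaled, linear axes from 0) of the 10 core enzymes in each mouse, with 6 Cpt1aCKO mice in red on the left and 5 floxed controls in blue on the right of each panel; horizontal marks and bars are mean ± SD. The groups are separate for *Acadvl*, *Acadl* and *Hadha*, and overlap for the other members, with *Acaa2* at 786 to 1347 CPM in Cpt1aCKO mice and 558 to 790 CPM in floxed controls.

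*Hadha* (chr5:30118304-30155162, minus strand) and *Hadhb* (chr5:30155248-30184593, plus strand) encode the α and β subunits of the trifunctional protein. The α subunit carries the long-chain hydratase and hydroxyacyl-CoA dehydrogenase activities, and the β subunit the long-chain thiolase. The genes lie head to head with 85 bases between their GENCODE starts, and this stretch is shown because it lies upstream of both. It is chr5:30155163-30155247 on the plus strand of GRCm38.p6, with GGGCGG, the GC box of Sp1-type factors, in capitals.
Hadha and Hadhb: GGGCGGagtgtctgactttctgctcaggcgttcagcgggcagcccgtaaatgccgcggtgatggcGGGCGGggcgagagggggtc
*Hadha* was at 195 to 252 CPM (median 232) in Cpt1aCKO mice, against 150, 183, 193, 194 and 182 CPM in floxed controls. The groups did not overlap, although the lowest Cpt1aCKO mouse (S2577) was at 195 CPM and the highest floxed control mouse at 194 CPM. The log2 fold change was 0.34 (SE 0.0878, adjusted p = 0.486 from edgeR), with means of 229 ± 24.3 CPM (SD, n = 6) in Cpt1aCKO mice and 181 ± 17.8 CPM (SD, n = 5) in floxed controls.
*Hadhb* was at 283 to 368 CPM (median 344) in Cpt1aCKO mice, against 253, 286, 299, 275 and 281 CPM in floxed controls. The Cpt1aCKO mouse S2577 fell among the controls and the other 5 lay above them. The log2 fold change was 0.26 (SE 0.0751, adjusted p = 0.64 from edgeR).

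*Echs1* (chr7:140105710-140116476, minus strand) encodes the soluble hydratase that prefers short chains and also serves valine breakdown. Its stretch is shown because it was the only 1 of 9 member windows with a match to AGGTCANAGGTCA, the direct repeat bound by PPAR with RXR, allowing 2 mismatches in the 12 fixed letters. It covers chr7:140116477-140116536 on the minus strand of GRCm38.p6, with the match, 71 to 83 bases before the RefSeq start, in capitals.
Echs1: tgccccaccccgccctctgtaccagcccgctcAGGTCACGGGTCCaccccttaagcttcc
*Echs1* was at 380 to 465 CPM (median 409) in Cpt1aCKO mice, against 445, 417, 506, 422 and 420 CPM in floxed controls. It was the only member with a negative log2 fold change, -0.09 (SE 0.0701, adjusted p = 0.891 from edgeR), and 0 Cpt1aCKO mice were above every floxed control mouse.

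*Hadh* (chr3:131233419-131272101, minus strand) encodes the soluble hydroxyacyl-CoA dehydrogenase of medium and short chains. It was at 627 to 766 CPM (median 725) in Cpt1aCKO mice, against 626, 708, 653, 674 and 595 CPM in floxed controls. Although 4 of 6 Cpt1aCKO mice were above every control, S7763 and S2577 were not, and the log2 fold change was 0.12 (SE 0.0676, adjusted p = 0.863 from edgeR).

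*Acaa2* (chromosome 18, plus strand) encodes the soluble thiolase that closes the turn for medium and short chains. It had the largest difference of the 10, at 786 to 1347 CPM (median 1164) in Cpt1aCKO mice, against 596, 767, 790, 687 and 558 CPM in floxed controls. The Cpt1aCKO mice S2397, S2155, S2394 and S7602 were at 1083 CPM or more, while S2577 (826 CPM) and S7763 (786 CPM) were near the top of the controls, so the groups overlapped by 1 mouse. The means were 1102 ± 247 CPM (SD, n = 6) in Cpt1aCKO mice and 680 ± 102 CPM (SD, n = 5) in floxed controls, a log2 fold change of 0.70 (SE 0.152, adjusted p = 0.415 from edgeR and 0.00482 from DESeq2). The exact two-sided permutation test gave p = 0.013.

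*Eci1* (chr17:24426641-24439348, plus strand) encodes an enoyl-CoA isomerase, which moves the double bond of unsaturated chains so that the spiral can go on. It was at 188 to 319 CPM (median 220) in Cpt1aCKO mice, against 153, 171, 201, 184 and 170 CPM in floxed controls. The Cpt1aCKO mouse S2155 was highest at 319 CPM, well above the next at 224 CPM, and S7763 and S2577 were among the controls. The log2 fold change was 0.38 (SE 0.121, adjusted p = 0.682 from edgeR), and 0.26 without S2155.

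**Figure D2:**
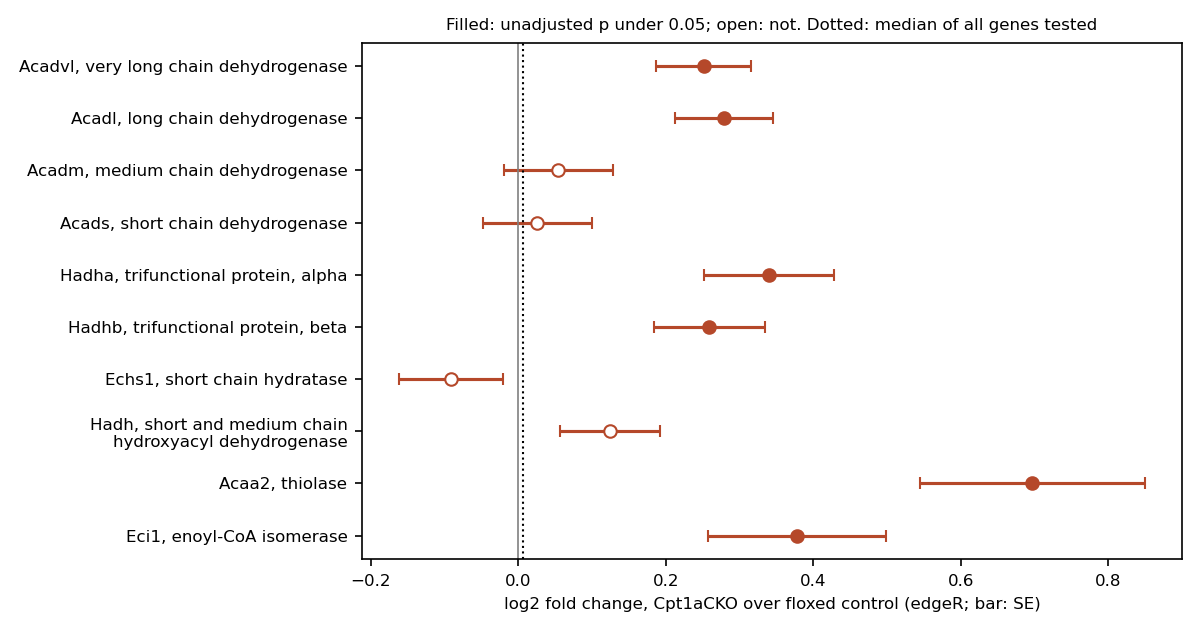
Log2 fold change (Cpt1aCKO over floxed control) of each core enzyme from edgeR with its SE, ordered by chain length and step of the spiral; filled points have an unadjusted p under 0.05 and the dotted line is the median of all genes tested. The 6 filled points lie between 0.25 and 0.70, and the 4 open ones between -0.09 and 0.12.

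Over the 10 genes, 6 were higher and 0 lower in Cpt1aCKO mice at an unadjusted p under 0.05 from edgeR, against 3.35% of all genes tested that were higher and 2.57% that were lower. At an adjusted p under 0.05 from edgeR 0 of 10 were higher or lower, where 0.011% of all genes were higher, and DESeq2 called 2 higher (*Acaa2* and *Acadl*), where 0.174% of all genes were. The groups did not overlap in 3 members, all higher in Cpt1aCKO mice, against 0.341% of all genes. The median log2 fold change was 0.26 over the members and 0.01 over all 18160 genes. In this bulk RNA, a change in the number of tubule cells and a change of RNA per cell cannot be told apart.
These 6 members were higher in both number series of the mice, the S2 and S7 numbers in their names. They had been singled out over the same mice, so this is no separate support. The differences in mean log2 CPM between Cpt1aCKO and floxed controls were 0.31 to 0.93 within S2 (4 mice against 3) and 0.14 to 0.25 within S7 (2 against 2), and *Acaa2* was at 0.93 and 0.25. Of the other members, *Acadm* (0.05 in S2 and 0.05 in S7) and *Acads* (0.04 and 0.01) were also higher in both series. *Echs1* was lower in both (-0.05 and -0.15), and *Hadh* was at 0.20 and -0.01. The labels do not say what the series stand for, and the difference between them was not tested.

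The same mice tended to be high or low across members. In Cpt1aCKO mice, S2155 was the highest of the 6 in 6 members, whereas S2577 was the lowest in 5 members and S7763 in 3. The median member was above the control mean by 0.41 on the log2 scale in S2155, 0.28 in S2394, 0.28 in S2397, 0.20 in S7602, 0.12 in S7763 and 0.09 in S2577. The *Cpt1a* left in each kidney was 84.8, 58.0, 59.8, 97.3, 60.7 and 38.4 CPM in the same mice. S2577 was lowest in both, while S2155 was highest for the median member and S7602 for *Cpt1a*. A relation between them was not tested. In sum the 10 enzymes took 0.483% to 0.644% of all counted reads in Cpt1aCKO mice, against 0.458%, 0.476%, 0.478%, 0.478% and 0.427% in floxed controls.

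**Figure D3:**
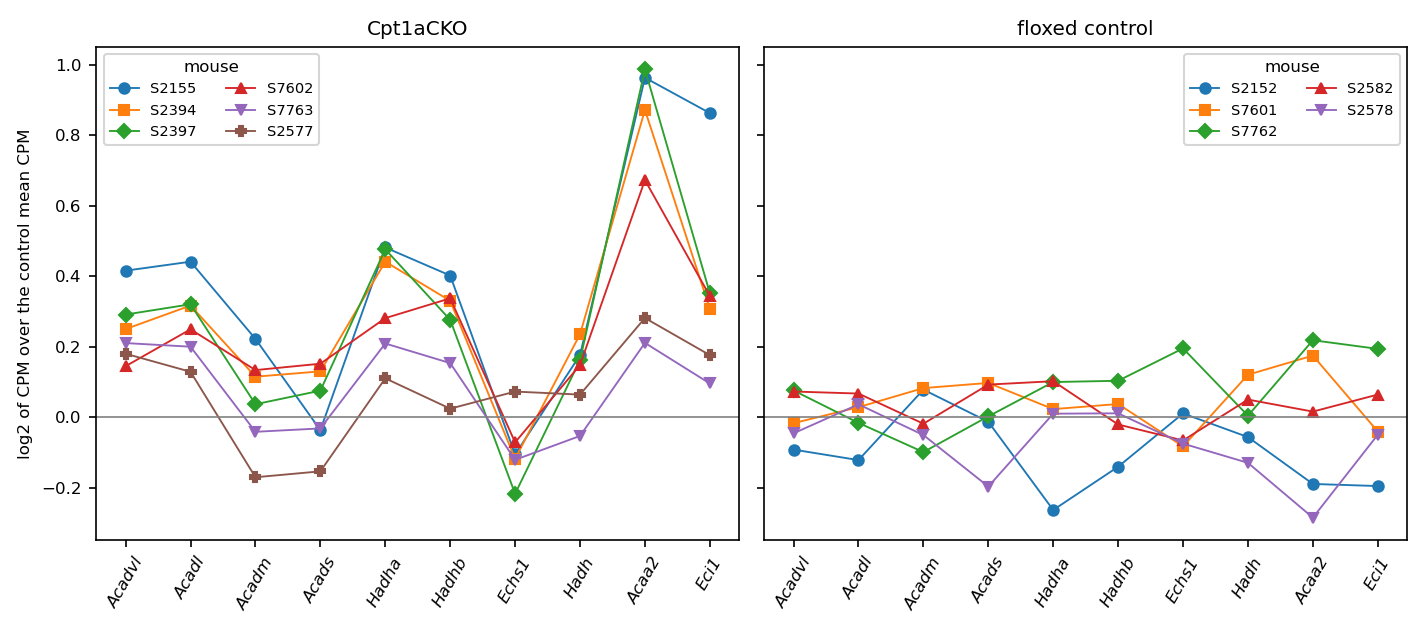
Log2 of each mouse's CPM over the mean CPM of the 5 floxed controls, for the 10 core enzymes in order of the spiral, in the 6 Cpt1aCKO mice (left) and the 5 floxed controls (right); each line is a mouse. Every Cpt1aCKO line lies lower at *Acadm*, *Acads* and *Echs1* than at *Acadl* and has its highest point at *Acaa2*, where S7763 and S2577 (at 786 and 826 CPM) lie well under the other 4 mice.

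Ratios of counts within a library do not depend on scaling, so 7 pairs of members were compared this way. *Hadha* over *Hadhb*, the subunits of 1 complex, had a mean log2 ratio of -0.55 ± 0.0832 (SD, n = 6) in Cpt1aCKO mice and -0.63 ± 0.0871 (SD, n = 5) in floxed controls. *Acadvl* over *Acadl*, the long-chain dehydrogenases, was at -0.75 ± 0.055 (SD, n = 6) in Cpt1aCKO mice and -0.73 ± 0.0675 (SD, n = 5) in floxed controls. *Acadm* over *Acads* was at 1.85 ± 0.114 (SD, n = 6) in Cpt1aCKO mice and 1.82 ± 0.115 (SD, n = 5) in floxed controls. In these 3 pairs the differences between the genotypes were 0.08, -0.03 and 0.02, with adjusted p = 0.194, 0.561 and 0.76 over the 7 pairs by the exact permutation test.

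The other 4 pairs had larger differences, of both signs, and no test set these pairs against the first 3. *Echs1* over *Hadha*, the soluble against the membrane-bound hydratase, was at 0.60 to 1.25 (median 0.84, log2 ratio) in Cpt1aCKO mice, against 1.57, 1.19, 1.39, 1.12 and 1.21 in floxed controls, and 5 of 6 Cpt1aCKO mice lay below every control. *Hadh* over *Hadha* was lower in Cpt1aCKO mice by 0.21 on the log2 scale, with 4 of 6 mice below every control. *Acadvl* over *Acads* was higher in Cpt1aCKO mice by 0.22, with 4 of 6 above every control.
*Acaa2* over *Hadhb*, the soluble against the membrane-bound thiolase, was at 1.34 to 2.00 (median 1.72, log2 ratio) in Cpt1aCKO mice, against 1.24, 1.42, 1.40, 1.32 and 0.99 in floxed controls, a difference of 0.42, here with the soluble enzyme on the higher side, and 5 of 6 mice lay above every control. The exact two-sided permutation p of these 4 pairs were 0.0152 (*Echs1* over *Hadha*), 0.0238 (*Hadh* over *Hadha*), 0.0303 (*Acadvl* over *Acads*) and 0.013 (*Acaa2* over *Hadhb*). Adjusted over the 7 pairs, which were picked with earlier results of these data known, all 4 came to p = 0.053 by the exact test, so 0 of 7 pairs passed.

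**Figure D4:**
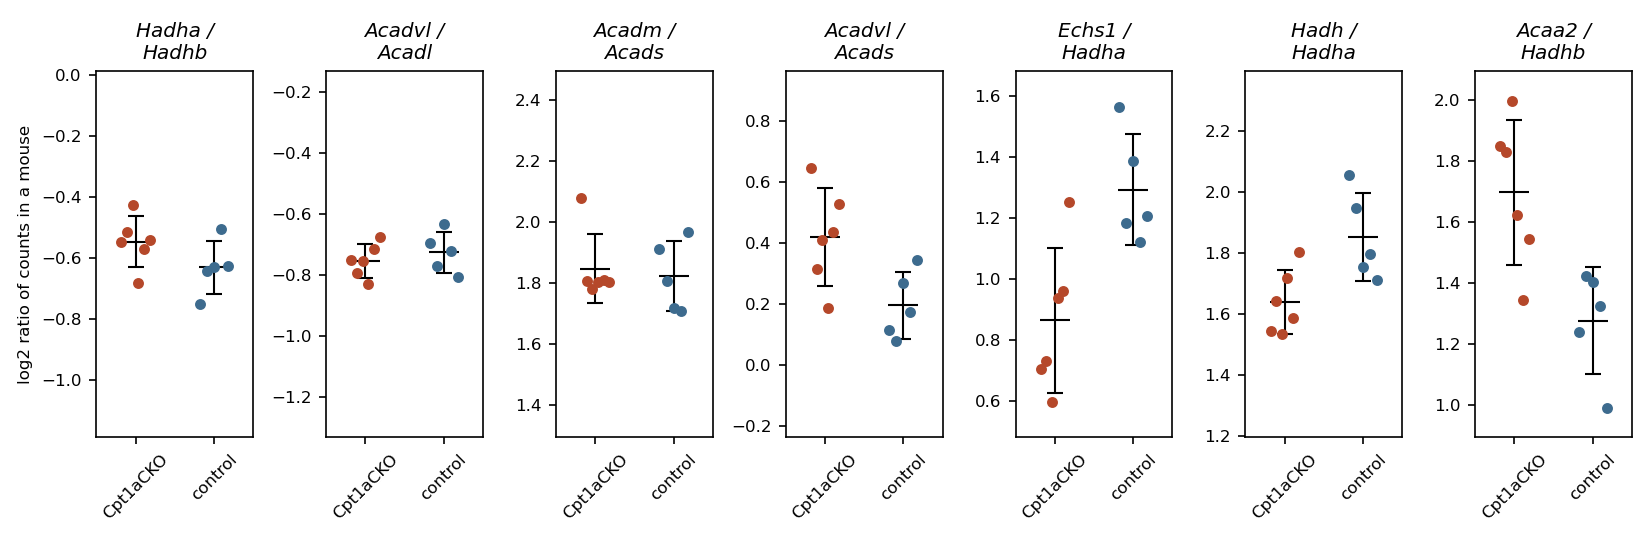
Log2 ratio of the counts of 2 core enzymes within each mouse for the 7 pairs, with 6 Cpt1aCKO mice in red on the left and 5 floxed controls in blue on the right; marks and bars are mean ± SD, and every panel spans the same height in log2 units. The differences are 0.08, -0.03 and 0.02 in the first 3 panels, and 0.22, -0.43, -0.21 and 0.42 in the other 4.

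Levels of different genes were compared per kilobase of exon, on the TPM scale. On the exon union of each gene *Acaa2* was the highest member in both genotypes, at 2012 ± 468 TPM (SD, n = 6) in Cpt1aCKO mice and 1186 ± 165 TPM (SD, n = 5) in floxed controls. *Acadl* (955 ± 101 TPM (SD, n = 6) in Cpt1aCKO mice and 753 ± 43.8 TPM (SD, n = 5) in floxed controls) and *Acadm* (782 ± 92.2 TPM (SD, n = 6) in Cpt1aCKO mice and 721 ± 57.2 TPM (SD, n = 5) in floxed controls) came next, and differed from each other by less than their SDs in floxed controls. *Hadha* was lowest, at 72.5 ± 9.21 TPM (SD, n = 6) in Cpt1aCKO mice and 54.8 ± 5.12 TPM (SD, n = 5) in floxed controls. The exon unions of *Hadha*, *Hadhb*, *Echs1* and *Hadh* are long (8730, 6595, 8286 and 4977 bases). With the longest protein coding transcript of each gene instead, a length chosen after this was seen, *Acadm* led in floxed controls and *Acaa2* in Cpt1aCKO mice, *Echs1* was in place 5 in both genotypes, and *Hadha* remained last.

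Among 32851 RefSeq promoter windows (250 bases before to 50 after each start, both strands), 16.3% held AGGTCA, against 3 of the 9 member windows (*Acadvl*, *Acadm* and *Echs1*); *Acaa2* has no entry in the table used. AGGTCANAGGTCA with at most 2 mismatches was held by 3.86% of windows and 1 of 9 member windows, where it overlaps the AGGTCA of *Echs1*. TCAAGGTCA, the extended site of the estrogen-related receptors, was held by 0.423% of windows and 0 of 9 member windows. GGGCGG, added after the windows were seen, was held by 35.7% of windows and 7 of 9 member windows (all but *Acadvl* and *Acadm*). The windows of *Hadha* and *Hadhb* overlap, and the first GGGCGG of the stretch shown lies in both, so they do not count separately. Of the 3 members with AGGTCA, *Acadvl* was higher in Cpt1aCKO mice at an unadjusted p under 0.05 and *Acadm* and *Echs1* were not.

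Genes around the spiral were read from lists that were likewise chosen with earlier results known. At an unadjusted p under 0.05 from edgeR, 3.35% of all genes tested were higher and 2.57% lower. The carnitine shuttle brings long chains into the matrix beside CPT1. Of 5 genes listed for it, not all of which carry out that step, 4 were higher in Cpt1aCKO mice and 0 lower. The threshold was an unadjusted p under 0.05 from edgeR. The median log2 fold change was 0.35 (3 of 5 and 0.26 without S2155). *Cpt2*, which turns the carnitine ester back into acyl-CoA, was at 324 to 496 CPM (median 373) in Cpt1aCKO mice, against 286, 301, 274, 340 and 305 CPM in floxed controls, with 1 Cpt1aCKO mouse among the controls (log2 fold change 0.35, SE 0.098, adjusted p = 0.594 from edgeR). *Slc22a5*, the plasma membrane carnitine transporter, *Slc25a20*, the carnitine carrier of the inner membrane, and *Crat*, carnitine acetyltransferase, had log2 fold changes of 0.38, 0.47 and 0.18. The other *Cpt1* genes were close to absent: *Cpt1c* was at 1.49 ± 0.425 CPM (SD, n = 6) in Cpt1aCKO mice and 1.57 ± 0.245 CPM (SD, n = 5) in floxed controls, and *Cpt1b*, the muscle form, at 0.0229 to 0.268 CPM in Cpt1aCKO mice and 0.0594 to 0.148 CPM in floxed controls, too low to test.

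Of 6 auxiliary mitochondrial enzymes, the 3 that prepare unsaturated chains for the spiral, *Decr1*, *Eci2* and *Ech1*, were higher at an unadjusted p under 0.05 from edgeR (log2 fold changes 0.25, 0.23 and 0.24). The other 3, among them *Hsd17b10* (-0.09), which serves isoleucine breakdown, were not. A list of 8 genes for electron transfer from the dehydrogenases held the carriers themselves and genes that supply or modify them. Of these 8 only *Etfdh*, the ETF-ubiquinone oxidoreductase, was higher at this threshold (log2 fold change 0.32). It was at 235 to 334 CPM (median 310) in Cpt1aCKO mice, against 230, 265, 218, 273 and 215 CPM in floxed controls. *Etfa* and *Etfb*, the subunits of the carrier itself, were at log2 fold changes of 0.11 and 0.16. Of the 8 other acyl-CoA dehydrogenases, some of which serve amino acid breakdown, 0 were higher or lower, and *Ivd*, that of leucine, was at -0.14.

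In the peroxisome, which runs its own β-oxidation of very long chains, 5 of 11 genes were higher and 1 lower. *Ehhadh*, the peroxisomal bifunctional enzyme, was at 773 to 1847 CPM (median 1056) in Cpt1aCKO mice, against 637, 686, 647, 846 and 723 CPM in floxed controls, and *Acox3* was the gene that was lower (log2 fold change -0.21). Without S2155, the Cpt1aCKO mouse with the highest *Ehhadh*, 1 of 11 was higher and 1 lower, and without S2577 3 were higher and 1 lower.

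All 11 tested genes of a reference list of PPARα targets were higher at an unadjusted p under 0.05 from edgeR (median log2 fold change 0.77). The list holds genes known to respond to that receptor, *Slc25a20* of the carnitine shuttle among them, and was chosen with earlier results known. The paper had already reported *Fabp1* and *Pdk4* as higher in these mice. At an adjusted p under 0.05, 0 of the 11 were higher in edgeR and 4 in DESeq2. Over all genes tested, 3.35% were higher at the unadjusted threshold. *Fabp1*, a fatty acid binding protein, was at 29.4 ± 17.8 CPM (SD, n = 6) in Cpt1aCKO mice and 3.66 ± 1.99 CPM (SD, n = 5) in floxed controls, and *Pdk4*, which restrains pyruvate oxidation, at 144 ± 78.6 CPM (SD, n = 6) in Cpt1aCKO mice and 40.8 ± 16.8 CPM (SD, n = 5) in floxed controls. *Vnn1*, a pantetheinase, had a log2 fold change of 0.76. The 6 core enzymes that were higher at this threshold lay between 0.25 and 0.70 on this scale, so each had a smaller difference than that median. Without S2155, 10 of the 11 targets were higher with a median of 0.58, which *Acaa2*, at 0.64 without that mouse, exceeded. Of 18 genes for regulators of these enzymes, *Ppara* and *Hnf4a* among them, 0 were higher or lower, and the smallest unadjusted p from edgeR, 0.0509, belonged to *Lipe* (log2 fold change 0.53), the hormone-sensitive lipase kept in that list.

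Other mitochondrial pathways were read the same way. Of 17 citric acid cycle genes 0 were higher or lower (median log2 fold change -0.01), with *Sdha* and *Sdhb* at 0.07 and -0.11. Of 25 nuclear-encoded subunits of oxidative phosphorylation 0 were higher and 1, *Ndufb8* of complex I, was lower (-0.20). Of 6 genes of the branch for propionyl-CoA, the end product of odd chains, 2 were lower, *Mmab* (-0.33, with groups that did not overlap) and *Mmaa* (-0.19), both of cobalamin metabolism. Without S7602, 1 of the 8 other acyl-CoA dehydrogenases was higher, 1 propionyl-CoA gene was lower and 2 subunits of oxidative phosphorylation were lower, and without S2155 1 propionyl-CoA gene and 1 regulator were lower and 1 regulator was higher. Without S2577, 3 regulators and 2 genes of the electron transfer list were higher. In the same setting 1 auxiliary enzyme, 1 of the other acyl-CoA dehydrogenases and 2 subunits of oxidative phosphorylation were lower. When each member was scaled to the summed CPM of the citric acid cycle genes, the 6 members kept differences of 0.25 to 0.68. The exact two-sided permutation p of each of them was at most 0.0108. That sum had a mean of 9806 CPM in both genotypes, so the scaling could hardly move the differences. It was not planned, and the 6 members had been singled out on the same mice.

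**Figure D5:**
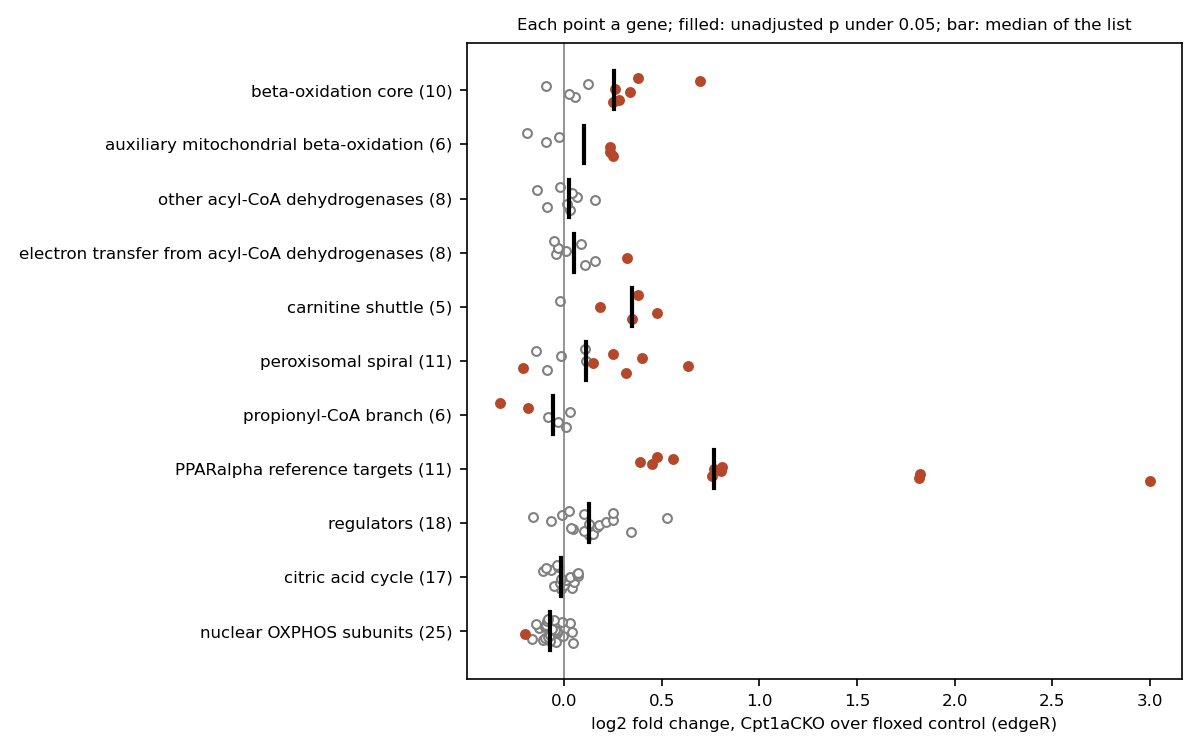
Log2 fold change (Cpt1aCKO over floxed control, edgeR) of each tested gene of the core enzymes and 10 related lists, with the number of genes in parentheses; filled points have an unadjusted p under 0.05 and black bars are list medians. The medians are 0.26 for the core enzymes, 0.35 for the carnitine shuttle and 0.77 for PPARα targets, against -0.01 for the citric acid cycle and -0.07 for oxidative phosphorylation.

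Markers of other cells were read beside these values. Those of the distal convoluted and connecting tubule summed to 1334 to 1536 CPM in Cpt1aCKO mice, against 1572 to 2030 CPM in floxed controls, and 3 of 6 were lower at an unadjusted p under 0.05 from edgeR (*Calb1*, *Klhl3* and *Slc12a3*). Of these distal markers 2 were lower without S7602 or without S2577, and 3 without S2155. Of 5 thick ascending limb markers 3 were lower (*Umod*, *Cldn16* and *Egf*), with sums of 4740 to 6152 CPM in Cpt1aCKO mice and 5020 to 6538 CPM in floxed controls. Leaving out S7602, S2155 or S2577 left 2 of these 5 lower. Over all genes tested 3.35% were higher and 2.57% lower at this threshold. Of 7 macrophage markers 2 were higher (*C1qa* and *C1qb*), with sums of 118 to 182 CPM in Cpt1aCKO mice and 96.9 to 140 CPM in floxed controls, and 4 were higher without S7602 (*C1qc* and *Cd68* as well) and 3 without S2155. The part of these shifts in the values of the core enzymes was not tested. The adipocyte hormone *Adipoq* had 0 reads in every mouse. The 7 adipocyte markers summed to 36.3 to 62.8 CPM in Cpt1aCKO mice and 41.6 to 75.0 CPM in floxed controls, nearly all from *Fabp4*, which capillary endothelium also expresses. The 6 skeletal muscle markers summed to 1.76 to 4.46 CPM in Cpt1aCKO mice and 1.35 to 3.27 CPM in floxed controls. When each member was scaled to the proximal tubule markers, the 6 members kept differences of 0.26 to 0.69, with exact two-sided permutation p of at most 0.0346. The sums of these markers had means of 15808 CPM in Cpt1aCKO mice and 15863 CPM in floxed controls. This scaling, not planned either, could thus hardly move the differences.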

How the data were processed

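The authors aligned reads with STAR 2.7.3a and deposited raw counts per gene from HTSeq. The labels and the paper's methods state neither the HTSeq version nor the genome build, annotation or strand setting. Reads came from TruSeq stranded mRNA libraries. The deposited table also holds size-factor-normalized values, fold changes and p-values of the authors' own DESeq2 comparison, which were not used.

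Here, counts of the 11 mice were filtered with filterByExpr, scaled by TMM and tested without covariates by edgeR 4.0.16 (robust quasi-likelihood test, Benjamini-Hochberg adjustment over 18160 genes, threshold 0.05) in R 4.3.3. DESeq2 1.42.0 and voom (limma 3.58.1) were alternatives. The fits were tested on simulated data. SEs of log2 fold changes come from the quasi-likelihood F. Pairs of members were tested on log2 ratios of counts by exact permutation (two-sided, all 462 ways to assign the mice), adjusted over 7 pairs. Each library is a separate mouse. Squared count differences between libraries of a group were at least 23.7 times those of sampling noise (chi-square per degree of freedom), so none was a copy. All 10 members, the *Cpt1* genes and up to 4 genes with the smallest p of each list are named. *Ppara*, *Hnf4a* and the markers of proximal tubule, thick ascending limb, macrophages and adipocytes were named with values seen. Some genes of these lists are not reported here. The members, lists and pairs were chosen with earlier results of these data known. Sequences are from RefSeq and lengths from GENCODE M21.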

Additional observations from a re-analysis of the deposited data

Results flagged for a closer look

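Within-group extremes were looked for in 42 sets of values (a gene or pair in 1 genotype), of which chance alone flags about 1 in 20, and 4 were found. The floxed control mouse S2152 was the lowest in *Hadha*, at 150 CPM against 182 to 194 CPM in the other floxed control mice. The Cpt1aCKO mouse S2155 was the highest in 3 of the sets. It was at 319 CPM in *Eci1*, where the other Cpt1aCKO mice were at 188 to 224 CPM. It was at 496 CPM in *Cpt2*, where the others were at 324 to 384 CPM. Its log2 ratio of *Acadm* over *Acads* was 2.08, against 1.78 to 1.81 in the other Cpt1aCKO mice; its *Acadm* was the highest of all mice and its *Acads* the second lowest of its group.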

How the results depend on the processing

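The 6 members kept a positive log2 fold change and an unadjusted p under 0.05 in each of 10 other settings and with each mouse left out. With a mouse left out 6 to 7 members were higher at that threshold, the added one being *Hadh* (without S7763 or S7601), which also passed with library size only and with voom. DESeq2 called 2 members at an adjusted p under 0.05, with or without the filter. Over all genes, DESeq2 called 31 higher and 18 lower on the same genes, and 33 and 19 without the filter, where 977 were higher at an unadjusted p. Without any filter edgeR had 2482 higher and 1056 lower at an unadjusted p, against 609 and 467 in the main test, and with a mean of at least 1 CPM 1 gene was higher at an adjusted p against 2. With a mouse left out, 454 to 962 genes were higher and 312 to 751 lower at an unadjusted p, both highest without S2577, and 2 were higher and 1 to 2 lower at an adjusted p. The *Acadm* over *Acads* difference changed sign as a difference of medians (-0.0014) and ranged from -0.0217 to 0.0608 with a mouse left out. The *Acads* log2 fold change ranged from -0.0183 to 0.0596 and turned without S7602 (-0.00084) or S2578 (-0.0183), as did its mean log2 CPM difference without S2578 (-0.0223, range to 0.0613). The cause was not tested. No paired analysis was possible because the labels name no litters and give no shared replicate numbers; the study speaks of littermates without saying which mice were. With the S2 or S7 number series as a covariate 6 members were higher at an unadjusted p. Each member had at least 6079 reads per mouse. Of the 7 pairs, 4 unadjusted exact p of 0.013 to 0.0303 came to 0.053 once adjusted.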
